A study of Mus musculus with 19 samples.

Results

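Mouse chromosome 13 (Chr13) was followed in liver tumors of mice with a conditional deletion of the spindle checkpoint gene Mad2l1 in hepatocytes. The members were all probes of the array that are not controls and whose position on mouse genome build NCBI37 (mm9) begins with chr13. There were 10616 such probes of 234018 in all and of 221455 on the 19 autosomes, and they ran from position 3004789 to 120276149 with a median spacing of 7898 bp and a largest gap of 654.6 kb.

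The samples were 4 adenomas of hepatocytes (HCA), 6 carcinomas (HCC) and the unaffected livers of the 9 mice that bore them, each measured once by array comparative genomic hybridization (aCGH). Sample DNA was labeled with Cy5 and DNA of a control liver of the opposite sex with Cy3. The control and all 9 mice shared a mixed strain background that includes C57BL/6, and the control's label names neither Cre nor a Mad2 or p53 allele. All 9 mice carried Albumin-Cre, which is active in hepatocytes, and Mad2(f/f), so the unaffected livers had the same inherited alleles as the tumors. How far Mad2l1 was deleted in each sample was not checked here. The HCAs came from 4 females: mouse 2430 (Mad2(f/f) p53(f/f), 16.9 months), mouse 6199 (Mad2(f/f) p53(f/f), 12 months), mouse 5884 (Mad2(f/f) p53(f/+), 14.2 months) and mouse 5901 (Mad2(f/f) p53(f/+), 12 months). The HCCs came from 5 mice of genotype Mad2(f/f) p53ser246+: females 6240 (16.2 months, 2 tumors named 6240-4 and 6240-2) and 6602 (13.2 months), and males 6487 (12.8 months), 6565 (14.7 months) and 6642 (12.3 months). The strain field of these 5 mice reads p53ser249. Tumor type and Trp53 allele therefore cannot be told apart, and no mouse gave both an HCA and an HCC. The samples were bulk tissue, which in liver includes cells other than hepatocytes, and their cell content was not measured.

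The spindle checkpoint holds cells in mitosis until every chromosome is attached to the spindle, and MAD2, the product of Mad2l1, is one of its core proteins. Cells without it missegregate whole chromosomes, and a copy missegregated in this way is gained or lost from end to end. The study also reported focal changes in copy number in HCCs of such mice. p53, the product of Trp53, restrains the proliferation of cells with such errors. In aCGH a chromosome with fewer copies, relative to the rest of the genome, than in the control gives a ratio below 0 (log2). This holds over its whole length. The ratio does not give the number of copies per cell.

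The mouse RefSeq annotation (GRCm38.p6, used for names only) places 829 protein-coding and 36 miRNA genes on Chr13. Of the genes listed for this chromosome, all 18 of cell division and DNA repair are on it, among them Trip13, whose product remodels MAD2, Ccnb1, which encodes the mitotic cyclin B1, and Rad17 and Msh3, which act in checkpoint signaling and mismatch repair. All 22 of growth control and signaling are on it as well, among them Ptch1, the receptor of hedgehog ligands, Pik3r1, a regulatory subunit of phosphoinositide 3-kinase, and Rasa1, a negative regulator of RAS. Genes of liver metabolism on the chromosome include Fbp1 of gluconeogenesis and Bhmt of methionine metabolism. These lists describe what the chromosome carries. Probes were not assigned to genes, and neither RNA nor the copy number of any single gene was analysed here.

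The chromosome also carries miRNA genes that stand in clusters. Mature sequences from RefSeq (GRCm38.p6) are shown for 3 clusters because a whole-chromosome change alters the dose of their members together, with the seed, bases 2 to 8, in capitals. The let-7 cluster holds 3 members with 1 seed, miR-27b and miR-24 are encoded beside miR-23b, and miR-449a stands with miR-449b and miR-449c.
let-7a-5p: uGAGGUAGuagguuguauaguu
let-7f-5p: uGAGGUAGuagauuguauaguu
let-7d-5p: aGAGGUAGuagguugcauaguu
miR-27b-3p: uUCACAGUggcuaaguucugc
miR-24-3p: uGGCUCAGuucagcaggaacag
miR-449a-5p: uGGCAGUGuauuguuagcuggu

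The let-7 seed was shared by 13 miRNA genes of the mouse, of which 3 are on Chr13 and 10 on other chromosomes. The seed of miR-449a was shared by 4 genes, 2 of them on Chr13. The seed of miR-27b was shared by 2 genes, of which 1 is on Chr13. These counts cover only genes with a listed mature sequence, 33 of the 36 on Chr13, so they can miss members of a cluster. The levels of these miRNAs were not measured.

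Before the tumors, the arrays and the livers were examined. On every array at least 97.9% of the Chr13 spots were well above background in both channels, and at most 0.317% were marked as outliers and left out. Probe noise, taken from the differences between adjacent probes, lay between 0.18 and 0.42 (log2), with the widest in the unaffected liver of mouse 6240, followed by that of mouse 6602 at 0.33. The sign of the X ratio matched the labeled sex in 19 of 19 samples. Outside Chr13, among the 2083 probes that varied most between livers, each of the 10 tumors correlated best with the liver of its own mouse, with r of 0.41 to 0.85 over probes, against at most 0.38 with any other liver. These probes were chosen for their spread, so the correlations are a description.

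Chr13 was the autosome on which the unaffected livers differed most. Their aCGH ratio, the mean log2 ratio of all probes of the chromosome, was 0.13 in liver 6240, 0.02 in livers 5901 and 2430, −0.05 in livers 6487 and 6602, −0.07 in liver 5884, −0.08 in liver 6565, −0.10 in liver 6642 and −0.14 in liver 6199. In 6 of the 9 livers the ratio was below 0, and in 4 of them (5884, 6199, 6565 and 6602) Chr13 was the lowest of the 19 autosomes. The SD over the 9 livers was 0.08, compared with 0.02 to 0.06 (median 0.04) for the other 18 autosomes, the next being Chr6. Without liver 6240 the SD on Chr13 fell to 0.06 and was still the largest of 19, next to 0.05 for Chr16. No liver was below −0.3, the threshold that the study used for a whole-chromosome event.

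**Figure D1:**
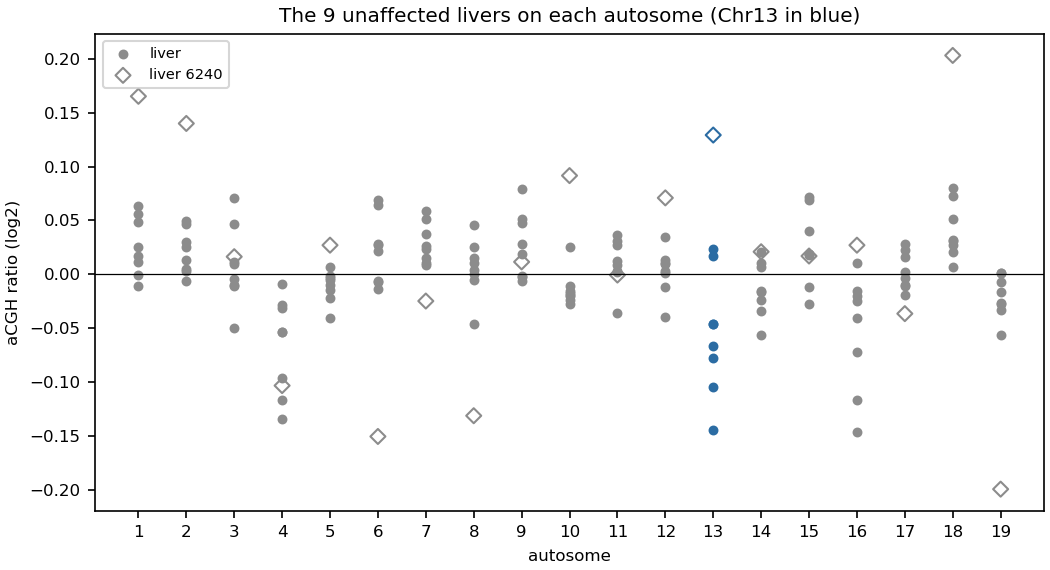
The aCGH ratio (log2, vertical axis) of each of the 9 unaffected livers is plotted for each of the 19 autosomes (horizontal axis), with open diamonds for liver 6240. On Chr13, in blue, the livers ran from −0.14 to 0.13, the widest range of any autosome.

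By label, the livers were distributed as follows. The 4 livers with floxed p53 were between −0.14 and 0.02 and the 5 livers with p53ser246+ between −0.10 and 0.13, so the genotypes overlapped. The 6 female livers ran from −0.14 to 0.13 and the 3 male livers from −0.10 to −0.05, which lies inside the female range. By scan day, the livers had medians of 0.02 (3 livers), −0.10 (2 livers) and −0.06 (4 livers) on days 1, 2 and 3. None of these contrasts was tested, since they compare subsets of the control group.

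In the tumors, Chr13 was below the unaffected livers in HCA and in HCC. The 4 HCAs had ratios of −0.32 (2430), −0.28 (6199), −0.23 (5901) and −0.17 (5884). All 4 lay below the lowest liver. The HCA mean was −0.25 ± 0.06 (SD, n = 4) and that of the livers −0.04 ± 0.08 (SD, n = 9), a difference of −0.22 with a 95% interval of −0.32 to −0.11 from the exact permutation test. The exact two-sided p was 0.0014, the smallest that 715 regroupings can give, and 0.00443 after Benjamini-Hochberg adjustment over the 19 autosomes. In this comparison 36.8% of the autosomes were called lower in the tumors, so Chr13 was 1 of 7, and its difference was the fourth lowest.

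The 6 HCCs were spread more widely. HCC 6487 had the lowest ratio of all samples at −0.42, followed by HCC 6642 at −0.36 and HCC 6565 at −0.32, all from males. HCC 6602 was at −0.25, HCC 6240-4 at −0.16 and HCC 6240-2 at −0.04, all from females. Of the 6 HCCs, 5 were below every liver, and HCC 6240-2 was inside the range of the livers. The HCC mean was −0.26 ± 0.14 (SD, n = 6), lower than the livers by a difference of −0.22 (95% interval −0.35 to −0.10, exact permutation p = 0.002, adjusted p = 0.0114 over the 19 autosomes). Here 21.1% of the autosomes, 4 of 19, were called lower, and the difference of Chr13 was the lowest of the 19. This test counted the 2 HCCs of mouse 6240 as separate samples, although they are not independent. With these 2 averaged, the difference was −0.26 (adjusted p = 0.00949, exact permutation).

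Among the HCCs, female mice alone did not pass the test. The 3 HCCs of females had a mean of −0.15 against −0.01 in the 6 female livers, and the difference of −0.13 had an adjusted p of 0.323 by the exact permutation test. The 3 HCCs of males had a mean of −0.37, against −0.08 in the 3 male livers. Of the 3 female HCCs, 2 came from mouse 6240, whose liver was the highest of all, and each of these tumors lay below it. Whether the HCCs of the sexes differ was not tested, because 3 values against 3 cannot give an exact p below 0.10. Males and females were also set against different control DNA, since the control was of the opposite sex. Sex and control therefore cannot be told apart. Leaving out mouse 6240, its liver and both tumors gave a difference between HCC and liver of −0.28 (adjusted p = 0.0256, exact permutation), an alternative chosen after seeing the data.

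HCC and HCA did not differ on this chromosome beyond their spread. The difference in means was −0.01 with a 95% interval of −0.19 to 0.18 (exact permutation p = 0.914). The interval is wide, and it includes differences nearly as large as the one between tumor and liver. Of the HCAs, 1 of 4 was below −0.3, and of the HCCs 3 of 6. Within the HCAs, the p53(f/f) tumors were at −0.32 and −0.28 and the p53(f/+) tumors at −0.23 and −0.17, which was not tested with 2 samples each.

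Each tumor was then set against the liver of its own mouse. A deviation shared by both cancels in this difference, whereas one of the liver array alone enters it. The SD over tumors went from 0.06 to 0.11 in HCA and from 0.14 to 0.07 in HCC. In all 10 pairs the tumor was lower. Tumor and own liver were scanned on the same day except in mouse 5901, with the HCA on day 2 and the liver on day 1. For the HCAs the difference, tumor minus own liver on the log2 scale, was −0.34 in mouse 2430, −0.25 in mouse 5901, −0.13 in mouse 6199 and −0.10 in mouse 5884, with a mean of −0.21 ± 0.11 (SD, n = 4). For the HCCs it was −0.38 in mouse 6487, −0.28 for tumor 6240-4, −0.26 in mouse 6642, −0.24 in mouse 6565, −0.20 in mouse 6602 and −0.17 for tumor 6240-2, with a mean of −0.26 ± 0.07 (SD, n = 6). The own liver changed the order of the tumors. HCA 6199 had the second lowest ratio among the HCAs but a small difference, because its liver was the lowest of the 9. HCC 6240-2, the only tumor inside the range of the livers, was 0.17 below a liver that was itself high.

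**Figure D2:**
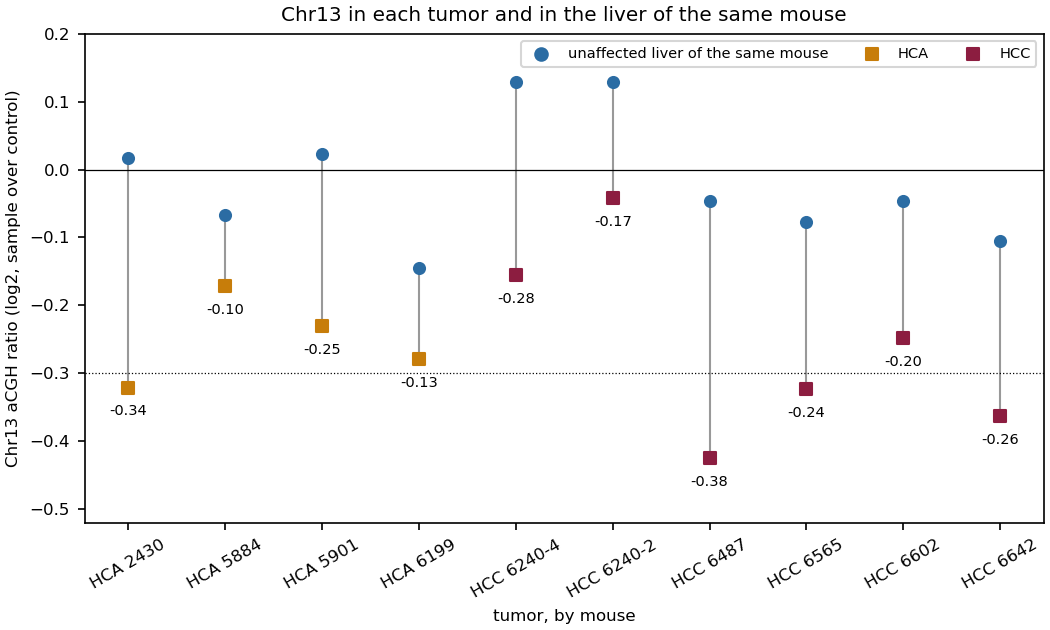
The Chr13 aCGH ratio (log2, vertical axis) of each tumor (squares, HCA or HCC) is joined to that of the unaffected liver of the same mouse (circles), with the difference written under each tumor and the −0.3 threshold dotted. Every tumor sits below its own liver, by 0.10 to 0.38, and liver 6240 is drawn for both of its tumors.

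Both means depended on the background handling. The mean difference from the own liver was −0.12 in HCA and −0.15 in HCC with normexp, and −0.11 and −0.16 without background subtraction. The X ratio of the livers shrank as well. Its median size was 0.94 as reported, 0.42 with normexp and 0.54 without background subtraction. Exact sign changes over mice could not reach 0.05 in either group. With 4 HCA mice the p was 0.125 and with 5 HCC mice, the tumors of mouse 6240 averaged, it was 0.0625, in each case the smallest p the design allows. With the mouse as a block in limma across the 19 autosomes, the differences were −0.21 for HCA (adjusted p = 0.009) and −0.26 for HCC (adjusted p = 0.000965).

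The scan day was examined as a batch, because HCAs were scanned on days 1 and 2 and HCCs on days 2 and 3. The HCAs were lower than the livers by a difference of −0.24 on day 1 (2 HCAs, 3 livers) and −0.16 on day 2 (2 HCAs, 2 livers). The HCCs were lower by −0.33 on day 2 (1 HCC, 2 livers) and −0.20 on day 3 (5 HCCs, 4 livers). Permuted within days, the difference was −0.20 for HCA (exact adjusted p = 0.0288) and −0.23 for HCC (exact p = 0.0132, adjusted p = 0.0838), so the direction held on each day and the adjusted p for HCC no longer passed.

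The lower ratio extended along the chromosome at the scale of 5 Mb. Chr13 was divided into 25 bins of 5 Mb, and the difference was fitted with limma over all 502 autosomal bins. Against unaffected liver, 24 of the 25 bins were called lower in HCA, with differences of −0.26 to −0.19, and 25 of 25 in HCC, with differences of −0.26 to −0.20. Over all autosomal bins 27.3% were called lower in HCA and 20.1% in HCC, and the median difference of all bins was 0.02 and 0.01, against −0.22 on Chr13 in both. The bins of a chromosome are not independent of each other, since a whole-chromosome change moves all of them. With normexp background correction limma called 0 of 25 bins in HCA and in HCC (24 and 25 at an unadjusted p under 0.05), and in females only 0 of 25 in HCC (11 at an unadjusted p under 0.05), with all 25 differences below 0 in each case.

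**Figure D3:**
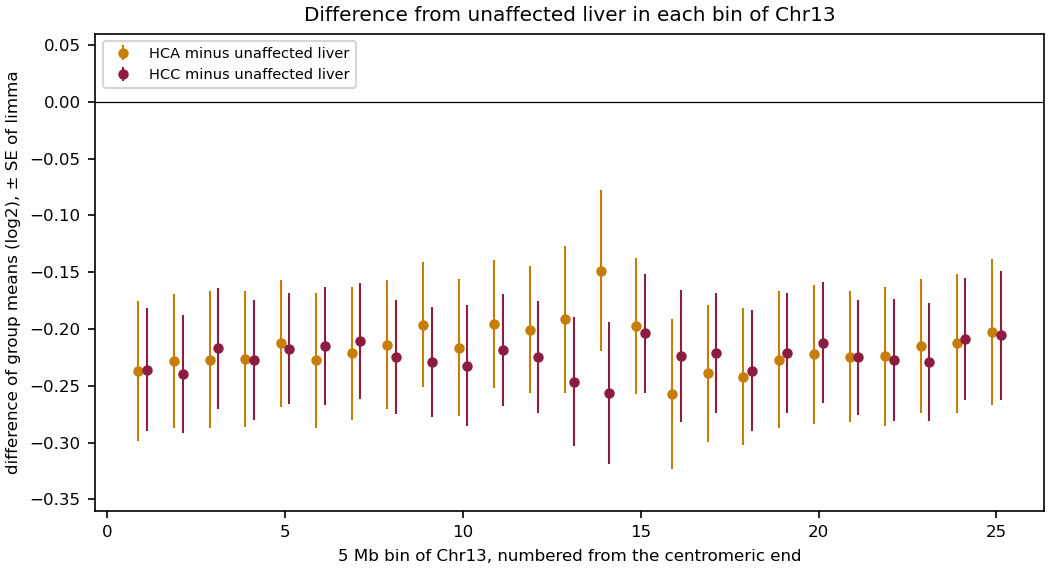
The difference between group means (log2, vertical axis) is plotted for each of the 25 bins of 5 Mb of Chr13 (horizontal axis, from the centromeric end) for HCA and HCC against unaffected liver, with bars of 1 SE from limma. All 50 points lie below 0, and the smallest difference, −0.15, is that of HCA in bin 14.

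The 1 bin that was not called in HCA was 65 to 70 Mb (−0.15 ± 0.07 SE, adjusted p = 0.0866), the bin that also stood highest in the livers, with a mean of 0.09. In that bin all 10 tumors were again below their own liver. Between HCC and HCA, limma called 0 of 25 bins, compared with 21.1% of all autosomal bins, and 0 bins had an unadjusted p under 0.05 either with limma or with the exact permutation test. The bin differences between HCC and HCA ran from −0.11 to 0.03.

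In 5 Mb bins, each of the 10 tumors was below its own liver in all 25, that is in 250 of 250 values. In windows of 20 neighbouring probes, of which Chr13 held 530, this was so throughout in 4 tumors. HCA 5884 was above its liver in 78 windows, by up to 0.21, HCA 6199 in 11, HCC 6602 in 6, and HCC 6240-2, HCC 6487 and HCC 6642 in 1 each. HCC 6487 ranged from −0.43 to −0.32 below its liver and HCA 5884, the tumor with the smallest change, from −0.18 to −0.03. The SD of the difference over bins was 0.02 to 0.04 in every tumor. The median autosome had an SD over bins of 0.02 to 0.05. Ranked from the most even, Chr13 was among the 6 most even of 19 autosomes in 7 tumors, had rank 11 in HCC 6565 and rank 18 in HCA 5901 and HCA 6199.

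The proximal, middle and distal parts, of equal length, moved by the same amount. The mean difference from the own liver over the 10 tumors was −0.24 in the proximal part, −0.23 in the middle and −0.24 in the distal part. In HCC 6487 these were −0.39, −0.37 and −0.39, and in HCA 5901 −0.26, −0.26 and −0.24. The largest contrast was in HCA 5884, with −0.12, −0.08 and −0.12. A break was called where segments of at least 10 windows of 20 neighbouring probes differed by at least 0.2. By this rule 0 breaks were found on Chr13 in the 10 tumors, while 12 breaks were found on other autosomes in 4 of the tumors, of which 1 lay on Chr3, 2 on Chr9 and 1 on Chr12. A smaller step than 0.2 would not be found by it.

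**Figure D4:**
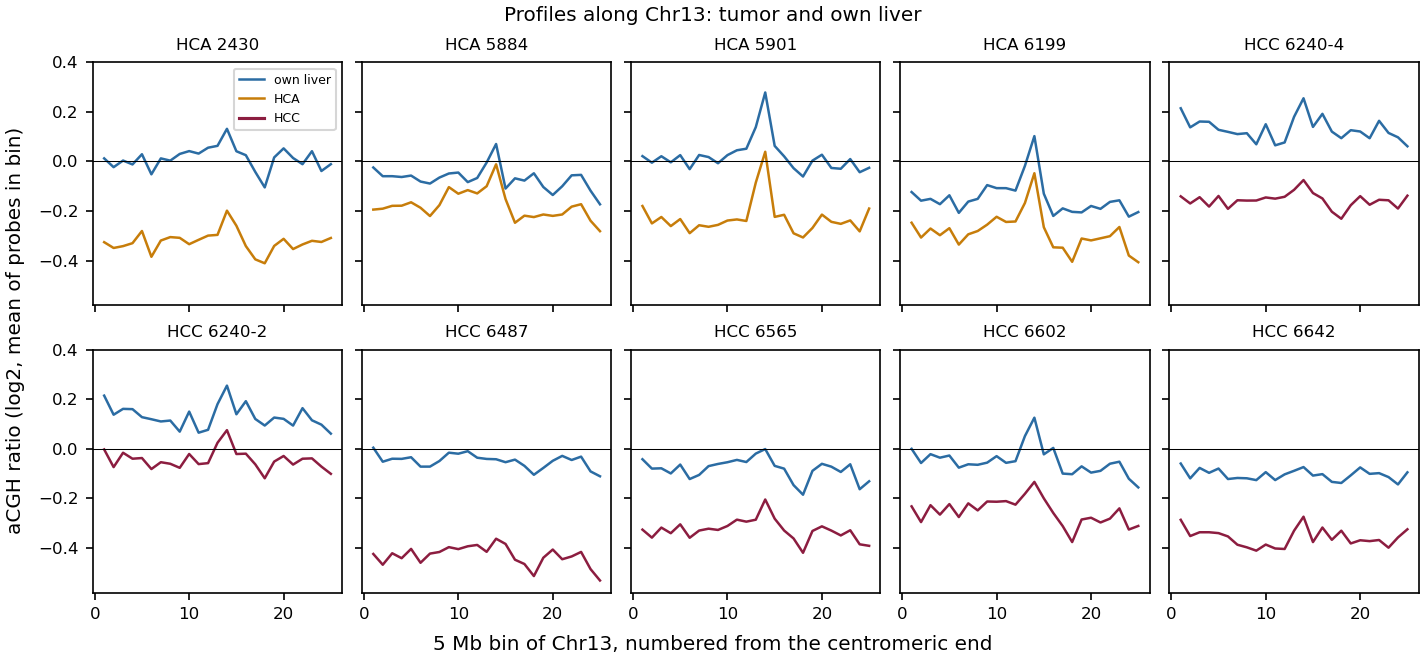
The aCGH ratio (log2, vertical axis) of the 25 bins of Chr13 (horizontal axis) is drawn for each tumor (HCA or HCC) and for the liver of the same mouse. In each panel the tumor runs below and nearly parallel to its liver, and the rise at bin 14 in mice such as 5901 and 6199 is seen in both.

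Tumor and own liver shared the shape of the profile. In the bin at 65 to 70 Mb, liver 5901 was at 0.28 and HCA 5901 at 0.04, whereas the rest of the chromosome averaged lower in both. In mouse 6642 there was little such rise, with −0.07 in the liver and −0.27 in the HCC. The bin at 85 to 90 Mb was low in tumors and livers alike, with group means of −0.34 in HCA, −0.33 in HCC and −0.09 in liver, and its differences of −0.24 for both tumor types were close to those of the other bins.

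Windows of 20 probes showed where the mice differed. The windows had a median length of 169 kb, and the 4 with the largest SD over the livers, measured as the deviation from the median of the chromosome, are given as a description. The first lay at chr13:61697787-62082426 (mm9, SD 0.58), the second at chr13:65871408-67007468 (SD 0.31), the third at chr13:67407326-67528420 (SD 0.28) and the fourth at chr13:96669969-96965665 (SD 0.20). The genes in these windows were not analysed here, because the annotation at hand is of another build. The paper ascribed candidate genes common to its thymus and liver tumors to artifacts of the mixed strain background. Whether that background contributes to these windows was not tested. An SD above 0.2 was found in 3 of the 530 windows, or 0.566%, compared with 0.786% of the 11063 autosomal windows, so such windows were no more common here than elsewhere.

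In the first window the livers ran from 0.06 to 1.73 above the rest of the chromosome. Livers 6199 (1.73) and 5901 (1.70) stood highest, and livers 6487 (0.06) and 6642 (0.13) lowest. The tumors of the high mice were also high, at 1.45 and 1.87. The tumors of the low mice, HCC 6487 at 0.45 and HCC 6642 at 0.42, were the lowest of the tumors, although above their livers. In the second window, 4 livers (5884, 6602, 6199 and 5901) were between 0.49 and 0.61 and the other 5 between −0.13 and 0.00. The own tumors of those 4 mice, at 0.31 to 0.51, were the highest of the 10 tumors. In the fourth window livers 6602 (−0.41), 5884 (−0.33) and 6199 (−0.27) were low, and so were HCC 6602 (−0.39), HCA 5884 (−0.49) and HCA 6199 (−0.26).

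**Figure D5:**
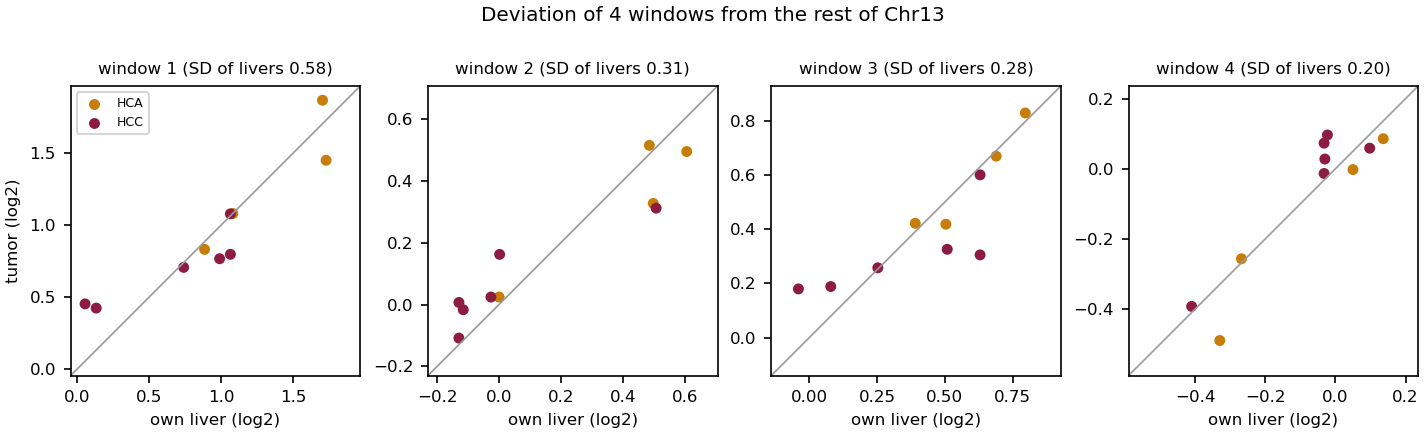
The deviation of 4 windows of 20 probes from the median of Chr13 (log2) is plotted for each tumor (vertical axis) against its own liver (horizontal axis), with the line of equality. The points run along the line with scatter. In the first window tumor and own liver differed by a median of 0.19 and by at most 0.40. There the 2 HCCs at the lower left, of mice 6487 and 6642, lie above the line.

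Changes private to the tumor were rare on this chromosome. A window was counted where tumor minus own liver lay beyond 0.3 in either direction from the median of the chromosome. This was so for 7 of 5300 values on Chr13, or 0.132%, compared with 0.561% over all autosomes. Of the 7, 5 were in HCA 5884, 3 of them higher and 2 lower. The 3 higher ones were 0.20 to 0.21 above the own liver. The other 2 were the first window in HCC 6487 (0.40, which put it 0.02 above its own liver) and the third in HCC 6240-4 (−0.32), at positions where the livers also varied. The 5 windows of HCA 5884 were not adjacent to each other, and they lay between 0.31 and 0.33 in size.

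The size of the change was below that of 1 of 2 copies missing in every cell. Because the control DNA was of the opposite sex, the X chromosome of each liver gave the ratio of 1 copy to 2 on the array of that liver. It was 0.89 to 1.04 in females and −1.02 to −0.90 in males on the log2 scale, which corresponds to a drop of 45.9% to 51.4% when 1 of 2 copies is missing. Only the X of the liver served as the scale. On the tumor arrays the X ratio ran from 0.32 (HCC 6240-2) to 1.07 (HCA 5884) in females and from −1.06 to −1.04 in males. In HCC 6240-4 it was 0.73, against 1.04 in the liver of mouse 6240. The cause of these departures was not tested. Relative to its own liver, the DNA dose of Chr13 was 79.1% in HCA 2430, 83.9% in HCA 5901, 91.1% in HCA 6199 and 93% in HCA 5884. In the HCCs it was 76.9% in 6487, 82.1% in 6240-4, 83.6% in 6642, 84.4% in 6565, 86.9% in 6602 and 88.8% in 6240-2.

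As a share of the drop that 1 missing copy gave on X, these doses came to 14.3% to 45% in the HCAs (mean 28.2% ± 14.3, SD, n = 4) and 21.8% to 49.7% in the HCCs (mean 33.1% ± 9.56, SD, n = 6). The groups overlapped. With normexp background correction the shares were 134% and 50.7%, but there the X ratio of the livers itself shrank, to 0.42 in size at the median and to as little as 0.03 in a female. Without background subtraction the mean shares were 25.1% in HCA and 32% in HCC. In bulk DNA, a loss in fewer cells and a smaller loss per cell cannot be told apart.

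Chr13 was compared with Chr3, Chr9 and Chr12, other autosomes that were low in these tumors, within the same tumors and after subtraction of the own liver. Over 9 mice, the tumors of mouse 6240 averaged, Chr13 minus Chr3 was −0.04 ± 0.13 (SD), with Chr13 lower in 6 of 9. Chr13 minus Chr9 was −0.04 ± 0.15, lower in 5 of 9, and Chr13 minus Chr12 was 0.00 ± 0.13, lower in 5 of 9. With exact two-sided sign changes over mice, adjusted over the 3 comparisons, the p-values were 0.703, 0.703 and 0.965. Differences between mice were larger than these means. In mouse 6487, Chr13 fell by 0.38 and Chr9 by 0.02 on the log2 scale, whereas in mouse 6642 Chr13 fell by 0.26 and Chr9 by 0.42.

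Chr13 was nonetheless among the low autosomes of nearly every tumor. Ranked by tumor minus own liver, it was the lowest of the 19 autosomes in 2 tumors (HCA 5901 and HCC 6240-4), among the 2 lowest in 7 and among the 4 lowest in 9. The exception was HCA 5884, where it ranked 7 from the lowest. Chr12 was lowest in 3 tumors (HCA 6199, HCC 6487 and HCC 6602), and Chr9 in 3 (HCA 2430, HCC 6565 and HCC 6642). The ranks changed when the own liver was not subtracted. Chr13 was then the lowest autosome in HCC 6487 and HCC 6565. It ranked 2 in HCA 5901, 3 in HCC 6240-4 and 6 in HCC 6240-2.

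At the level of probes the shift was visible in most members. In the livers, 40.3% to 75.6% of the Chr13 probes were below 0, with a median of 58%. In the HCAs it was 73.2% to 89.7%, and in the HCCs 57.6% to 97%. HCC 6487 was at the top with 97%, and HCC 6240-2 at the bottom with 57.6%. Compared probe by probe with the own liver, 93.1% of the probes were lower in HCC 6487, 88.4% in HCC 6642 and 87% in HCA 2430, but only 62% in HCA 5884. Single probes are noisy, with an SD of 0.22 to 0.44 over the chromosome in a sample, so a small shift moves only part of them past the own liver.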

How the data were processed

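The authors hybridized labeled genomic DNA to Agilent Mouse Genome CGH arrays and deposited 1 table per array, written by Feature Extraction 10.5.1.1. It holds, per the file headers, the log10 ratio of Cy5 over Cy3 after background subtraction and linear dye normalization by the authors, and the deposited intensity of each spot and its local background. Probe positions were on NCBI37. A further deposited table, with 1 column per sample, repeats these log10 ratios.

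Ratios were converted to log2, outlier spots were dropped, saturated spots kept, spots of 1 probe averaged, and each array centred on its autosomal median. Of 10616 probes, 10484 had a value on all 19 arrays. No loess was applied. Chromosome values are means of probes. 8 spots on an unplaced piece of Chr13 were not members. Group differences were tested with exact two-sided permutation of means (Benjamini-Hochberg over 19 autosomes), bins of at least 20 probes with limma 3.58.1 in R 4.3.3 over 502 bins, and pairs with exact sign changes. Intervals come from inversion of the exact test. The scripts were tested on simulated data.

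Samples of a group came from different mice, except the 2 HCCs of mouse 6240. Precision is limited by how few arrays each group has. Across the 19 autosomes, the deviations of tumor and own liver from their group means correlated with a median r of 0.12 (−0.22 to 0.29), above 0.1 in 5 of 10 pairs. The pairing comes from the mouse named in the labels.

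Chr13 and the gene lists were chosen with earlier results of these data known. The rule named genes by list, the 3 genes of largest change per comparison, Mad2l1, Trp53 and the T cell receptor gamma locus. The files hold no gene names and the annotation at hand is of GRCm38.p6, so counts per gene, the check of the deleted alleles and that locus were not analysed here. Windows of 20 probes took their place. Alternatives covered background correction, loess, centring, filters, the median, bins of 2 and 10 Mb, the mouse or scan day as a block, the study's test, females only, and each sample left out.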

Additional observations from a re-analysis of the deposited data

Results flagged for a closer look

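Of 99 sets of Chr13 values examined for a sample far from the others of its group, 2 had one. About 1 in 20 would be expected to by chance if the sets were independent, which bins of 1 chromosome are not. Both flagged sets were bins, and in both the sample was liver 6240, the array with the widest probe noise. In the bin at 0 to 5 Mb it was at 0.21, while the other 8 livers were between −0.12 and 0.02. In the bin at 105 to 110 Mb it was at 0.16, with the others between −0.16 and −0.01. Over the whole of Chr13 this liver was at 0.13, the next highest at 0.02. Without it, the difference from the livers was −0.19 for HCA (adjusted p = 0.00426) and −0.20 for HCC (adjusted p = 0.0137), both by the exact permutation test. The part of probe noise in its ratio was not tested.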

How the results depend on the processing

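The lower Chr13 ratio of HCA kept its direction under 18 alternatives and 13 leave-outs (−0.24 to −0.11), and passed 0.05 under all but exact sign changes of tumor minus own liver, the replicate block (−0.21, adjusted p = 0.183), where the number of mice allows no smaller p than 0.125. For HCC the direction was also kept under 20 alternatives and 15 leave-outs (−0.28 to −0.12). It no longer passed with normexp (−0.12, adjusted p = 0.0911), permuted within scan days (−0.23), with sign changes as the replicate block (−0.26, adjusted p = 0.198) and in females only (−0.13). Among the alternatives for HCA and HCC, the values deposited for all samples together repeat the same ratios. Limma without a block and the study's test change only the test. None of these could alter the direction. With mouse as the replicate block of a limma fit, 100% of the bins were called in both. With normexp 0% of bins were called in HCA and in HCC (24 and 25 of 25 at an unadjusted p under 0.05 with limma), and in females only 0% in HCC (11 of 25). The cause was not tested. No exact test per bin was run under these settings.

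The difference between HCC and HCA, near 0, turned positive without centring (0.0351), centred on all probes (0.0124) and in females only (0.10). With single samples left out it ran from −0.0523 (without HCC 6240-2) to 0.0242 (without HCC 6487). Chr13 minus Chr12 turned negative with normexp (−0.0198), without background subtraction (−0.000715) and without subtraction of the own liver (−0.0435), and with single mice left out it ran from −0.0246 (without 6199) to 0.0313 (without 6565). No p for either passed 0.05.

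The difference from the own liver was −0.12 in HCA and −0.15 in HCC with normexp, and −0.11 and −0.16 without background subtraction. The share of a 1-copy drop was 134% for HCA and 50.7% for HCC with normexp, and 25.1% and 32% without background subtraction. Without background subtraction the liver SD was 0.0521. The livers' SD on Chr13 had rank 1 of 19 from the largest as reported, rank 3 with normexp or no centring and rank 2 when centred on all probes. Counts per gene were not run.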
